A study of Homo sapiens with 8 samples.

Results

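The genes for 8 subunits of the mTOR complexes, MTOR, MLST8, DEPTOR, RPTOR, AKT1S1, RICTOR, MAPKAP1 and PRR5, were examined as targets of mTOR's own chromatin binding in LNCaP, an androgen-responsive cell line established from human prostate cancer. A peak was counted at a subunit gene when the deposited annotation named that gene and placed the peak centre at most 50 kb from its transcription start site (TSS). This gave 34 peaks of 125713 in the 4 peak lists, and 39 peaks assigned to the same genes at larger distances are described apart. Cross-linked chromatin was precipitated with an antibody against mTOR from cells with a hairpin against the pioneer factor FoxA1 (shFoxA1) or with the empty vector (shEV). For brevity, phrases such as each hairpin or both hairpins cover shFoxA1 and shEV, although shEV is the empty vector. Before treatment all cells spent 48 h without androgen, in 2% charcoal-stripped serum. They then received 10 nM R1881, a synthetic androgen, or 0.1% ethanol vehicle (EtOH) for 24 h. Each of the 4 groups, shFoxA1 R1881, shFoxA1 EtOH, shEV R1881 and shEV EtOH, is 1 immunoprecipitated library with its own peak list, so no difference has a replicate check and no p-value is given. The 4 input libraries were not analysed here. The sources used here do not say whether the knockdown line was a clone or a pool, or how much FoxA1 remained, and peak lists alone cannot check the knockdown.

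mTOR is a serine/threonine kinase that works in a pair of multi-protein complexes. The kinase and MLST8, a small protein that binds the kinase domain, are core subunits of each, and DEPTOR is an inhibitory subunit of each. RPTOR is the scaffold that brings substrates to complex 1, and AKT1S1 (PRAS40) is an inhibitory subunit of that complex. RICTOR is the scaffold of complex 2, MAPKAP1 (SIN1) helps it select Akt as a substrate, and PRR5 (Protor-1) binds RICTOR. Complex 1 drives protein and lipid synthesis, and complex 2 phosphorylates Akt and related kinases. In prostate cells androgen signalling through the androgen receptor is known to feed into mTOR-dependent metabolism, and FoxA1 opens chromatin for that receptor.

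Promoter sequences were matched only for MTOR, RPTOR, RICTOR, MAPKAP1 and PRR5, and all of these but PRR5 are shown. None was matched for MLST8, DEPTOR and AKT1S1, the genes with a start site peak in an R1881 list, so no promoter with such a peak was searched. Each gene shown lacked a start site peak in both R1881 lists, while the EtOH lists differed. MTOR had one in no list, RPTOR and RICTOR in shFoxA1 EtOH alone, and MAPKAP1 in both EtOH lists. PRR5 also had one in no list, but it has several promoter windows and these are not shown. The 250 bases before each start are from RefSeq (GRCh38.p14), written 5′ to 3′ along the gene, and capitals mark matches to any of 6 motifs searched on both strands.
MTOR: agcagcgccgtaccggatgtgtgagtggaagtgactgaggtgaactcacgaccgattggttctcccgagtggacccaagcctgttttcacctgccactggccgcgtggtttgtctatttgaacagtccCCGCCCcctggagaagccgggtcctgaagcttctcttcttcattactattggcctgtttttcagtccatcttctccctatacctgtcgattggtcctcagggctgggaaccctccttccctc
RPTOR: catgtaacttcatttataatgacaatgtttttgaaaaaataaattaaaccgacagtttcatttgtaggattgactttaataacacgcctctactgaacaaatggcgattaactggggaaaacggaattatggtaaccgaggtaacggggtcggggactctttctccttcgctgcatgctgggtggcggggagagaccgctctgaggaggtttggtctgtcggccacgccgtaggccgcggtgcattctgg
RICTOR: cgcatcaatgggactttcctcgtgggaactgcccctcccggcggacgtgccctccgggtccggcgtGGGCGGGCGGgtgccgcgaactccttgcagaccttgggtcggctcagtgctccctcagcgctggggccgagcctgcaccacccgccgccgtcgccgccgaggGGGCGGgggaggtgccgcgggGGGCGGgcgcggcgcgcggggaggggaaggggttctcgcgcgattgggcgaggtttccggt
MAPKAP1: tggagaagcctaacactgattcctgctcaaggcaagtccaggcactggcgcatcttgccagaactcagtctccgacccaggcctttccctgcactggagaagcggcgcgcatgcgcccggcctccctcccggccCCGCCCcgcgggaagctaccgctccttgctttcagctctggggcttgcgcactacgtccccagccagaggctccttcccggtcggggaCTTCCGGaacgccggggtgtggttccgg
They lie at chr1:11262552-11262801 on the minus strand for MTOR, chr17:80544588-80544837 on the plus strand for RPTOR, chr5:39074400-39074649 on the minus strand for RICTOR and chr9:125707209-125707458 on the minus strand for MAPKAP1. The motifs were a forkhead site (TGTTTAC), the core of an androgen receptor site (TGTTCT), an E-box (CACGTG), a GC box (GGGCGG), a cAMP response element (TGACGTCA) and an ETS site (CCGGAAG), with overlapping matches all marked. The GC box was found once in MTOR, 4 times in RICTOR (of which 2 overlap) and once in MAPKAP1, and the ETS site once in MAPKAP1. Over the same 250 bases of 35116 RefSeq promoters, the GC box occurred in 42.6% and the ETS site in 8.52%. The forkhead site occurred in 2.98% of those windows, the androgen receptor core in 12.4%, the E-box in 6.34% and the cAMP response element in 1.65%, and none of these letters was in the 4 stretches shown. Among the PRR5 windows left out, that starting at chr22:44701954 held an E-box and several GC boxes. The RICTOR promoter was the richest of these in G and C (76.0%, with 35 CpG steps), and the RPTOR promoter the poorest (47.2%, with 15). The MTOR promoter had the fewest CpG steps (11, at 55.6% G and C). A called peak overlapped the RICTOR and RPTOR stretches in shFoxA1 EtOH and the MAPKAP1 stretch in shEV EtOH. The MAPKAP1 peak of shFoxA1 EtOH began 22 bp inside the gene and so lay just past the stretch.

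Most subunit genes carried a peak within 50 kb in the FoxA1 knockdown lists, and fewer did in the empty vector lists. There were 7 of 8 in shFoxA1 R1881, where 51.6% of 20037 protein-coding genes had such a peak, and 7 of 8 in shFoxA1 EtOH, where 49.1% did. The count was 4 of 8 in shEV R1881 against 37.5% of coding genes, and 5 of 8 in shEV EtOH against 36.5%. The gene without a peak differed by list: MAPKAP1 in shFoxA1 R1881 and MTOR in shFoxA1 EtOH. DEPTOR, AKT1S1, RICTOR and MAPKAP1 had none in shEV R1881, and MTOR, DEPTOR and PRR5 had none in shEV EtOH. The numbers of peaks were 11, 12, 5 and 6 in shFoxA1 R1881, shFoxA1 EtOH, shEV R1881 and shEV EtOH. The shFoxA1 lists were longer, with 39570 peaks for R1881 and 35121 for EtOH, against 26074 for shEV R1881 and 24948 for shEV EtOH. No read totals accompany the lists, so library depth is unknown. Without repeat-annotated peaks, 3 genes were left in shFoxA1 R1881, 6 in shFoxA1 EtOH, 2 in shEV R1881 and 4 in shEV EtOH. The count in shFoxA1 R1881 then lay below that in shEV EtOH. No share of coding genes was computed without repeats.

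At the start site itself, R1881 lists held peaks at fewer subunit genes than the EtOH lists with the same hairpin. A peak within 1 kb of the TSS was called at 3 of 8 genes in shFoxA1 R1881 (MLST8, DEPTOR and AKT1S1), against 26.8% of coding genes. In shFoxA1 EtOH there were 6 of 8, with RPTOR, RICTOR and MAPKAP1 added, against 27.4%. In shEV R1881 MLST8 alone had one, against 13.8% of coding genes, and in shEV EtOH MLST8, AKT1S1 and MAPKAP1 had one, against 15.2%. MTOR and PRR5 had none in any list at this distance. Over all coding genes the share in R1881 was also below that in EtOH with each hairpin, by a smaller margin.

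**Figure D1:**
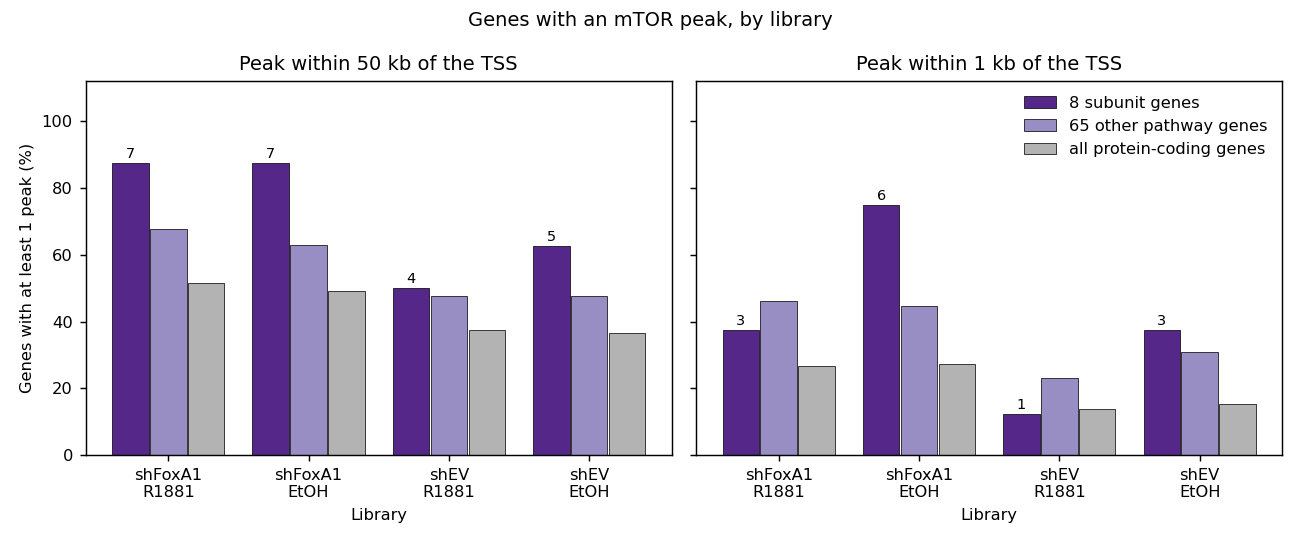
Share of genes with at least 1 mTOR peak within 50 kb (left) or 1 kb (right) of the TSS, in percent, by library; dark bars are the 8 subunit genes with their number above, light bars 65 other genes of the mTOR pathway and grey bars all protein-coding genes. Within 1 kb the dark bar is highest in shFoxA1 EtOH, at 6 of 8 genes, and lowest in shEV R1881, at 1 of 8.

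Peak scores are the authors' values as deposited; the sources used here do not define them, and they are ranked only within a list. The percentile given with a score is the share of the list's peaks with a lower score, where ties take their mean rank. Coordinates are those of the files (hg38).

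MTOR, the gene of the kinase, had a peak with androgen only. It lay about 6.1 kb inside the gene, in intron 4 of 57 and in an L2a element, at chr1:11256233-11256751 in shFoxA1 R1881 and chr1:11256204-11256704 in shEV R1881. Its score was 57 in shFoxA1 R1881 (percentile 45.6) and 379 in shEV R1881 (percentile 95.3), where it ranked 1196 of 26074. The peak thus stood mid-list with the FoxA1 hairpin and near the top with the empty vector. Of all 38284 merged regions within 50 kb of a TSS, 5.37% had this pattern of presence in the R1881 list of each hairpin and in no EtOH list.

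MLST8 carried the only region within 50 kb of a subunit gene that was present in all 4 lists. The peak covered or adjoined the promoter, with its centre 143 to 270 bp before the TSS, at chr16:2204753-2205622 over all lists. Its score was 83 in shFoxA1 R1881 (percentile 64.7), 75 in shFoxA1 EtOH (58.1), 20 in shEV R1881 (3.99) and 27 in shEV EtOH (11.1). Its rank from the top was 13023 of 39570 in shFoxA1 R1881, 13749 of 35121 in shFoxA1 EtOH, 24362 of 26074 in shEV R1881 and 21173 of 24948 in shEV EtOH, in lists of unequal length. shFoxA1 R1881 also had a low-scoring peak in exon 3 of 9, 944 bp from the start, with a score of 27 (percentile 10.6). Over all regions within 50 kb of a TSS, 18.9% were present in all 4 lists.

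DEPTOR, the inhibitor found in each complex, had a start site peak with the FoxA1 hairpin only. It lay in a CpG island 498 bp from the TSS in shFoxA1 R1881, with a score of 74 (percentile 59.4), and 312 bp from it in shFoxA1 EtOH, with a score of 66 (52.0). The nearest peak to the DEPTOR start was 17.9 kb away in shEV R1881 and 73.2 kb away in shEV EtOH. Presence in both knockdown lists alone was seen in 13.6% of all regions within 1 kb of a TSS.

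RPTOR, the scaffold of complex 1, had 9 peaks in 5 regions within 50 kb, more than any other subunit gene. An intergenic region 21.6 kb upstream was present in every list but shFoxA1 R1881, with scores of 123 in shFoxA1 EtOH, 76 in shEV R1881 and 105 in shEV EtOH (percentiles 76.6, 59.7 and 72.6). An L2 element 47.4 to 47.5 kb downstream, in intron 1 of 33, was present in every list but shEV EtOH, with scores of 153 in shFoxA1 R1881, 75 in shFoxA1 EtOH and 34 in shEV R1881. These regions lie on opposite sides of the start, and each was missing from a different list. The promoter peak, centred 58 bp before the TSS at chr17:80544463-80545098, was called in shFoxA1 EtOH alone with a score of 42 (percentile 27.7). The remaining regions were single low-scoring intronic peaks, at 27.6 kb in shFoxA1 EtOH with a score of 21 and at 30.8 kb in shEV EtOH with a score of 34.

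AKT1S1, the inhibitory subunit of complex 1, had a promoter peak in every list but shEV R1881. Its score was 74 in shFoxA1 R1881 (percentile 59.4), 58 in shFoxA1 EtOH (44.8) and 42 in shEV EtOH (29.2), at chr19:49876803-49877764 in shFoxA1 R1881. The promoter is shared with TBC1D17: the same region is annotated to that gene's start in shFoxA1 R1881, and the deposited TSS of AKT1S1 was not the same for all of its peaks. A region 4908 bp upstream, in intron 9 of 16 of TBC1D17, was present in both knockdown lists, with scores of 92 in shFoxA1 R1881 and 27 in shFoxA1 EtOH. The file of shFoxA1 EtOH assigned it to MIR4750, so it counts at AKT1S1 in shFoxA1 R1881 alone. shFoxA1 R1881 also had a peak in intron 1 of 4 with a score of 14, at the bottom of its list (percentile 0.715).

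RICTOR, the scaffold of complex 2, showed a different set of peaks in each list and none in shEV R1881. The start site peak was called in shFoxA1 EtOH alone, in a CpG island at chr5:39073159-39074856, with a score of 103 (percentile 71.0) and a width of 1698 bp. That list also had an L1MA4A element 15743 bp upstream with a score of 66. An intronic region about 46 kb downstream was present in both knockdown lists, with scores of 14 in shFoxA1 R1881 and 66 in shFoxA1 EtOH. An L1PA4 element 35.3 kb downstream, in intron 2 of 38, was present in shFoxA1 R1881 with a score of 83 (percentile 64.7) and in shEV EtOH with a score of 50 (percentile 38.4). R1881 thus went with presence of this region under the FoxA1 hairpin and with absence under the empty vector. Of all 61118 merged regions, 3.91% showed such opposite presence, in either direction. In shEV R1881 the peak closest to the RICTOR start was 211 kb away and assigned to OSMR.

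MAPKAP1, the subunit of complex 2 that helps select Akt, had a start site peak in the EtOH lists only. It lay in the 5′ UTR, in exon 1 of 11, 225 bp from the TSS in shFoxA1 EtOH with a score of 49 (percentile 36.6) and 234 bp from it in shEV EtOH with a score of 42 (29.2). The peak nearest to the start was 37.0 kb away in shFoxA1 R1881 and 36.9 kb away in shEV R1881, both outside the gene. Presence in both EtOH lists alone was seen in 2.47% of all regions within 1 kb of a TSS.

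PRR5, which binds RICTOR, had a high-ranking peak about 2.3 kb upstream, in an intergenic L1MD1 element. Its score was 257 in shFoxA1 R1881 (percentile 91.8), 166 in shFoxA1 EtOH (84.0) and 191 in shEV R1881 (87.7). No peak was called there in shEV EtOH, where the nearest one lay 20.3 kb away. The region thus ranked high in 3 lists and was absent from the remaining one. The share of all regions present in exactly 3 lists was not computed, for this region or for those of RPTOR and AKT1S1.

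**Figure D2:**
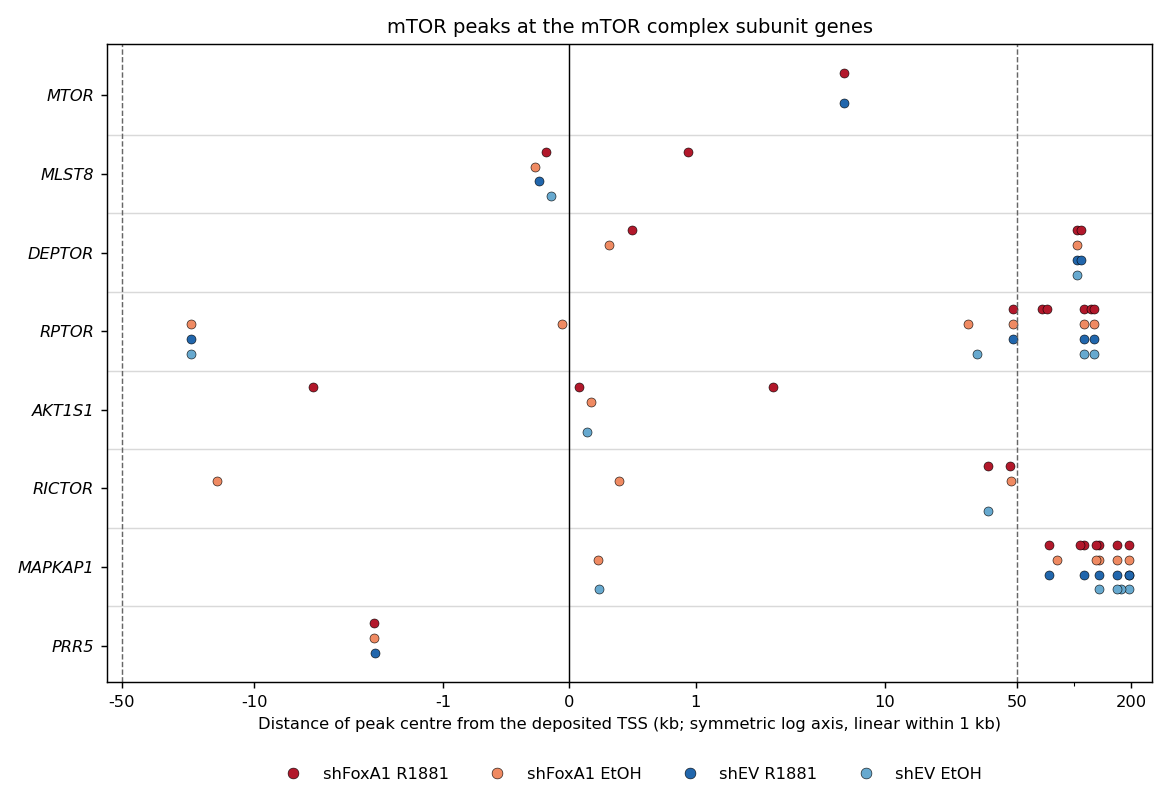
Distance of each of the 73 mTOR peaks from the deposited TSS of its subunit gene, in kb on a symmetric log axis, with 1 row per library within each gene; negative values are upstream and dashed lines mark 50 kb. DEPTOR, RPTOR and MAPKAP1 are the genes with peaks right of the 50 kb line, and MTOR has peaks in the R1881 rows only.

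The R1881 comparison was read within each hairpin. A gained peak is one of the R1881 list that overlaps no peak of the EtOH list, and a lost peak is one of the EtOH list that overlaps none of the R1881 list; the terms describe presence in lists, not a measured difference in binding. With the FoxA1 hairpin, 4 of the 11 R1881 peaks were gained (MTOR, MLST8, AKT1S1 and RICTOR), against 44.1% of all R1881 peaks within 50 kb of a TSS. There, 6 of the 12 EtOH peaks were lost (RPTOR, RICTOR and MAPKAP1), against 35.8% of all. With the empty vector, 3 of the 5 R1881 peaks were gained (MTOR, RPTOR and PRR5), against 45.9%, and 4 of the 6 EtOH peaks were lost (RPTOR, AKT1S1, RICTOR and MAPKAP1), against 42.1%. With so few peaks, nothing particular to the subunit genes can be read from these counts. Without peaks annotated to a repeat, 2 of 6 were gained and 4 of 7 lost with the FoxA1 hairpin, against 45.5% and 38.6% of all such peaks. With the empty vector 0 of 2 were gained and 3 of 5 lost, against 51.7% and 48.6%.

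Counted by gene, 4 of 8 had a gained peak with the FoxA1 hairpin, where 29.3% of coding genes did, and 3 of 8 had one with the empty vector, where 21.1% did. A lost peak was found at 3 of 8 with the FoxA1 hairpin, against 23.1%, and at 4 of 8 with the empty vector, against 19.2%. MTOR was the gene with a gained peak under each hairpin, a pattern of 12.1% of coding genes. RPTOR, RICTOR and MAPKAP1 each had a lost peak under each hairpin, against 8.48% of coding genes. At MAPKAP1 the same start site region was lost under each hairpin, whereas at RPTOR and RICTOR the lost regions differed between the hairpins.

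Within 1 kb of the start, lost peaks outnumbered gained ones with R1881 under each hairpin, but the peaks are too few to read a direction particular to these genes. With the FoxA1 hairpin 1 of 4 R1881 peaks was gained (the exonic MLST8 peak), against 29.6% of all such peaks, and 3 of 6 EtOH peaks were lost (RPTOR, RICTOR and MAPKAP1), against 30.8%. With the empty vector 0 of 1 R1881 peak was gained, against 39% of all, and 2 of 3 EtOH peaks were lost (AKT1S1 and MAPKAP1), against 43.8%. Start site peaks were thus missing with R1881 at 4 different genes, RPTOR and RICTOR of them under the FoxA1 hairpin alone, AKT1S1 under the empty vector alone and MAPKAP1 under each. Apart from RICTOR (percentile 71.0), these lost peaks ranked low in their EtOH lists, at percentiles of 27.7 to 36.6.

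The knockdown comparison was read within each treatment, and here gains outnumbered losses. In R1881, 7 of the 11 shFoxA1 peaks were absent from shEV (MLST8, DEPTOR, AKT1S1 and RICTOR), against 54.2% of all, and 1 of the 5 shEV peaks, the upstream RPTOR region, was absent from shFoxA1, against 26.1%. In EtOH, 8 of the 12 shFoxA1 peaks were absent from shEV (DEPTOR, RPTOR, RICTOR and PRR5), against 50.8%, and 2 of the 6 shEV peaks were absent from shFoxA1 (RPTOR and RICTOR), against 26.2%. The same imbalance was present over all peaks, whose lists differ in length. With every list reduced to its 24948 highest-scoring peaks, 4 of 8 shFoxA1 peaks were gained and 1 of 5 shEV peaks lost in R1881. In EtOH, 6 of 10 were gained and 2 of 6 lost. The same shares over all peaks were not computed for the reduced lists, so nothing particular to the subunit genes can be read from these counts.

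By gene, a gained peak was found at 4 of 8 in R1881 and at 4 of 8 in EtOH, where 35.9% and 31.5% of coding genes had one. A lost peak was found at 1 of 8 in R1881 and at 2 of 8 in EtOH, where 13.1% and 12.3% did. DEPTOR and RICTOR had gained peaks under each treatment. Within 1 kb of the start, 3 of 4 shFoxA1 peaks were gained in R1881 (MLST8, DEPTOR and AKT1S1), against 57.8%, and 3 of 6 in EtOH (DEPTOR, RPTOR and RICTOR), against 54.7%. No start site peak of shEV was missing from shFoxA1: 0 of 1 in R1881, against 16.1% of all, and 0 of 3 in EtOH, against 15.9%.

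**Figure D3:**
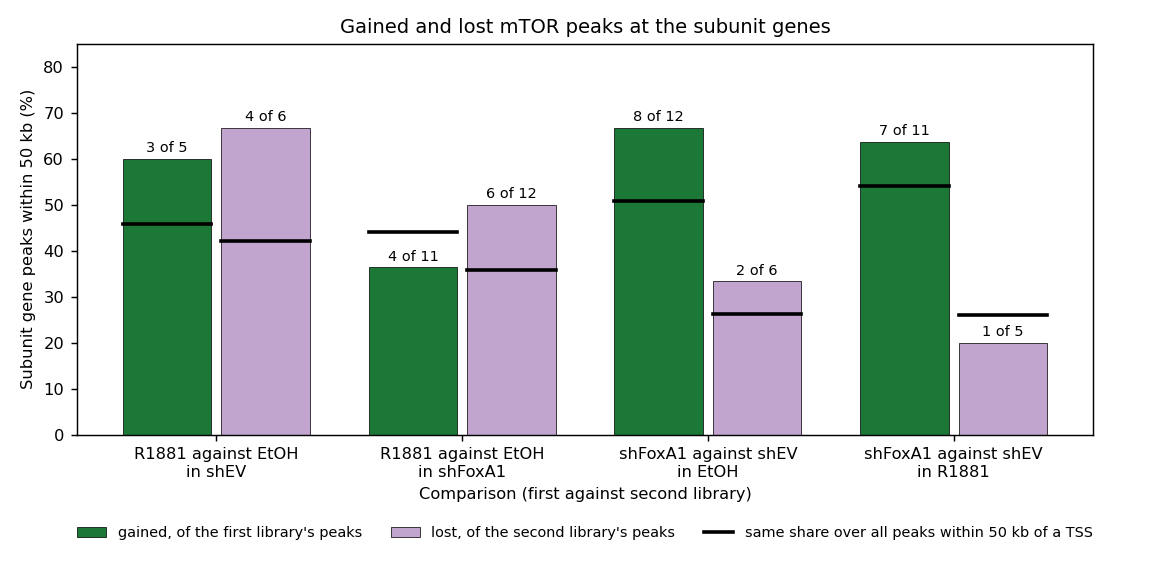
Share of the subunit gene peaks within 50 kb that were gained (of the first library's peaks) or lost (of the second library's peaks) in each of the 4 comparisons, in percent, with the counts above the bars; black lines give the same share over all peaks within 50 kb of a TSS. In the knockdown comparisons the gained bars stand above the lost bars, with 7 of 11 against 1 of 5 peaks in R1881 and 8 of 12 against 2 of 6 in EtOH, and the black lines are ordered alike.

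Peaks near the starts of these genes lay outside repeats and were rich in G and C, as were most start site peaks in the whole lists. The 14 peaks within 1 kb of a start lay in 7 regions at 6 genes, none was annotated to a repeat, and their median G and C content was 62.0%. Of the 20 peaks between 1 and 50 kb, 14 were annotated to a repeat, with a median G and C content of 45.2%. Of the 39 peaks beyond 50 kb, 20 were, with a median of 42.3%. In the whole lists the share in repeats was 2.30% to 3.44% within 1 kb, 67.3% to 75.8% between 1 and 50 kb and 82.6% to 89.3% beyond, so it was highest beyond 50 kb there and between 1 and 50 kb at the subunit genes. The median G and C content of the whole lists was 63.7% to 65.1% within 1 kb, above that of the subunit gene peaks.

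The median score percentile was 40.7 for the start site peaks, 58.9 for those between 1 and 50 kb and 72.6 for those beyond 50 kb. Over all peaks the medians ran from 38.0 to 45.6 within 1 kb and from 52.0 to 54.1 beyond 50 kb. The distant peaks of the subunit genes come from 16 regions at 3 genes, so their median describes few loci.

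The peaks beyond 50 kb were at MAPKAP1 (22 peaks), RPTOR (11) and DEPTOR (6), all downstream of the start in introns. Of their 16 regions 6 were present in all 4 lists, against 19.2% of all regions at that distance, and 3 were present in both R1881 lists alone, against 5.11%. The highest ranking was in intron 5 of MAPKAP1, in an ERV1 element of the PABL_A-int type about 135 kb from the start. It scored 384 in shFoxA1 R1881, 361 in shFoxA1 EtOH, 393 in shEV R1881 and 276 in shEV EtOH, with percentiles of 95.3, 94.4, 95.5 and 92.2. MAPKAP1 thus had a strong intronic region in every list beside a start site peak seen in EtOH only.

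Further MAPKAP1 regions in all lists lay about 169 kb from the start, with scores of 153, 247, 114 and 136 in shFoxA1 R1881, shFoxA1 EtOH, shEV R1881 and shEV EtOH, and about 195 kb from it, with top scores of 197, 166, 114 and 115 in the same order. The R1881-only regions of MAPKAP1 lay in intron 4. That at 113 kb scored 153 in shFoxA1 R1881 and 34 in shEV R1881, and that at 74.0 kb scored 122 in shFoxA1 R1881 and 67 in shEV R1881. An SVA_D element at 130 kb was present in the knockdown lists alone, with scores of 57 in shFoxA1 R1881 and 94 in shFoxA1 EtOH. The distant MAPKAP1 regions therefore included shared, R1881-only and knockdown-only ones within a single gene. The remaining MAPKAP1 regions were single peaks with scores of 27 to 42.

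RPTOR had 2 distant regions in all lists, both in intron 3 of 33. That at 113 kb scored 122 in shFoxA1 R1881, 75 in shFoxA1 EtOH, 67 in shEV R1881 and 169 in shEV EtOH. That at 128 kb, in an MLT1J element, scored 197, 113, 67 and 105 in the same order. The other 3 distant RPTOR regions were in shFoxA1 R1881 alone, with scores of 27 to 49. DEPTOR had a region in intron 4 of 8, 104 kb from the start, in all lists, with scores of 49, 123, 50 and 34 in the same order, and a weak R1881-only region at 109 kb with scores of 27 in shFoxA1 R1881 and 20 in shEV R1881.

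**Figure D4:**
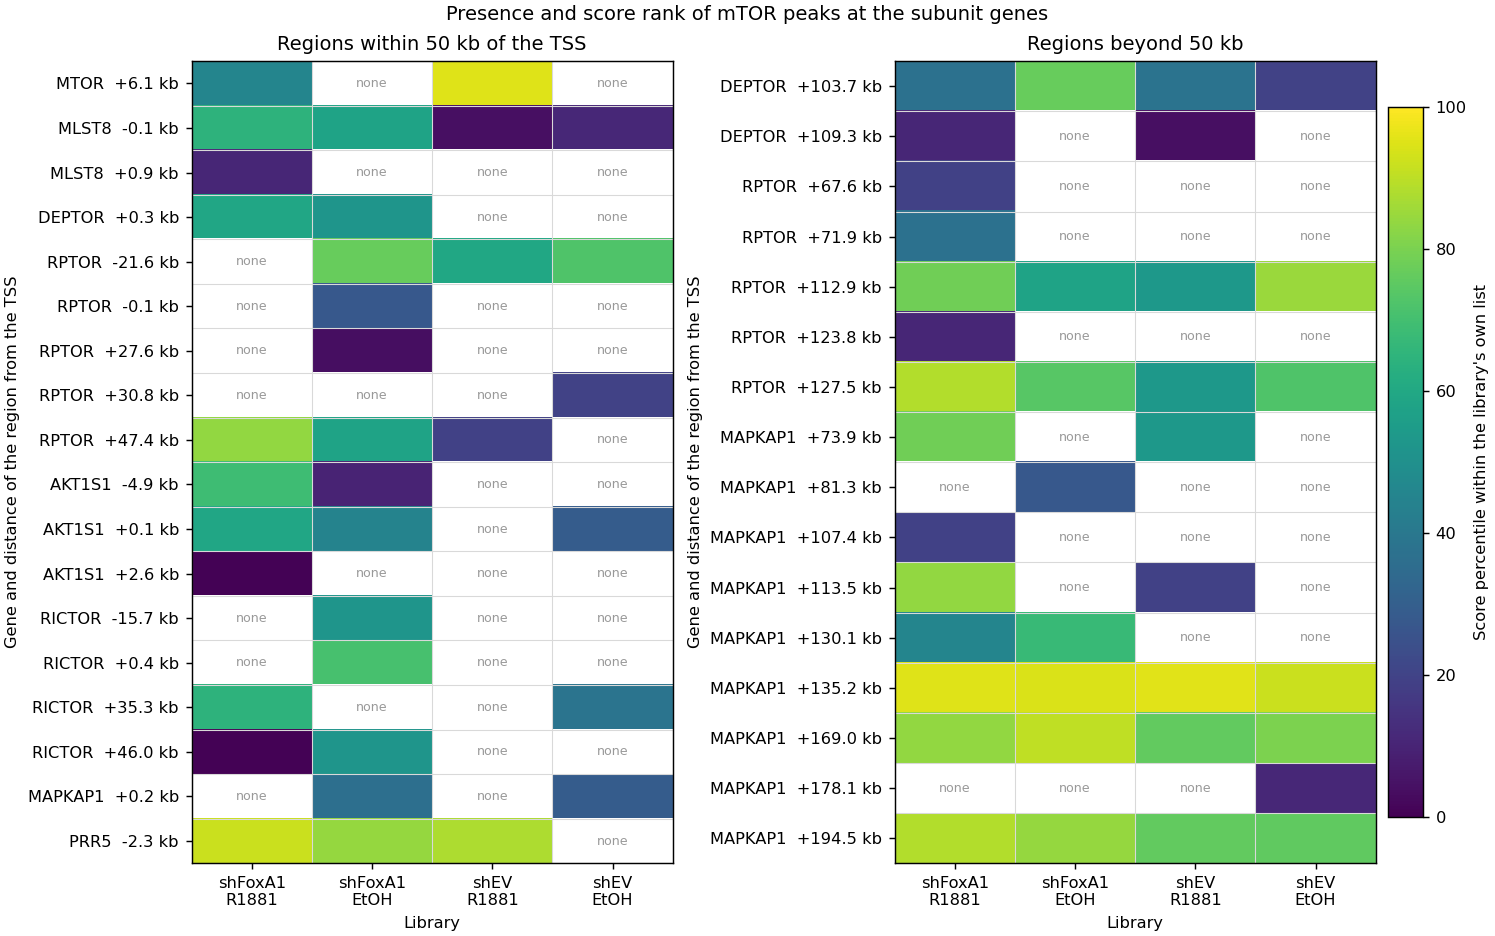
Score percentile within the library's own list (colour, 0 to 100) of each of the 34 merged regions at the subunit genes, within 50 kb (left) and beyond 50 kb (right) of the TSS, with libraries in columns and white cells where no peak was called. MLST8 has the only row on the left filled in all 4 columns, against 6 rows on the right.

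The limit of 50 kb fell in a gap: the farthest regions inside it were RICTOR at 46.2 kb and RPTOR at 47.5 kb, and the nearest outside it were RPTOR at 67.6 kb and 71.9 kb and MAPKAP1 at 73.9 kb.

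Because the files assign a peak to the nearest TSS, some peaks inside the subunit genes carried another gene's name. Gene bodies of the 8 genes held 32, 24, 15 and 15 peaks in shFoxA1 R1881, shFoxA1 EtOH, shEV R1881 and shEV EtOH, of which 9, 7, 3 and 3 were named for another gene. Per 100 kb of gene body this was 2.57, 1.93, 1.21 and 1.21 peaks, against 1.62, 1.43, 0.963 and 0.917 over all protein-coding genes. Within the gene bodies, with the FoxA1 hairpin, 15 of the 32 R1881 peaks were gained and 7 of the 24 EtOH peaks were lost. The assigned peaks within 50 kb showed 4 of 11 gained and 6 of 12 lost. Over all peaks within 50 kb of a TSS, 44.1% were gained and 35.8% lost. No such share was computed over all gene bodies.

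RPTOR held 12 of these in 7 regions, named for LOC101928855 or LOC400627. One, in an L1MEg element of intron 7 of 33, was present in all lists, with scores of 49 in shFoxA1 R1881, 58 in shFoxA1 EtOH, 85 in shEV R1881 and 67 in shEV EtOH. PRR5 had an intronic region named for PRR5-ARHGAP8, with scores of 65 in shFoxA1 R1881, 49 in shFoxA1 EtOH and 20 in shEV R1881, present in the same 3 lists as its upstream L1MD1 element. MTOR had 2 further intronic peaks, named for MTOR-AS1, in shFoxA1 R1881 alone, with scores of 34 and 49. DEPTOR had 1, named for COL14A1, in shFoxA1 EtOH with a score of 27.

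Among 65 other genes of the mTOR pathway, a peak within 50 kb was found at 44 in shFoxA1 R1881, 41 in shFoxA1 EtOH, 31 in shEV R1881 and 31 in shEV EtOH. These are 67.7%, 63.1%, 47.7% and 47.7% of the 65, against 51.6%, 49.1%, 37.5% and 36.5% of coding genes. A peak within 1 kb was found at 30, 29, 15 and 20 of the 65 in the same order. The coding gene shares at that distance were 26.8%, 27.4%, 13.8% and 15.2%. With the FoxA1 hairpin, 46 of the 104 R1881 peaks at these genes were gained (44.2%, against 44.1% of all peaks within 50 kb of a TSS) and 24 of the 86 EtOH peaks were lost (27.9%, against 35.8%). With the empty vector, 21 of the 52 R1881 peaks were gained (40.4%, against 45.9%) and 26 of the 55 EtOH peaks were lost (47.3%, against 42.1%). Between the hairpins in R1881, 62 of 104 shFoxA1 peaks were gained (59.6%, against 54.2%) and 9 of 52 shEV peaks were lost (17.3%, against 26.1%). In EtOH, 40 of 86 shFoxA1 peaks were gained (46.5%, against 50.8%) and 13 of 55 shEV peaks were lost (23.6%, against 26.2%). These shares lay within 10 percentage points of those over all peaks. All 5 genes of the energy and stress list (STK11, PRKAA1, PRKAA2, DDIT4 and DDIT4L) had a peak in every list. Of 30 amino acid sensing genes, 18 had one in shFoxA1 R1881, 17 in shFoxA1 EtOH, 12 in shEV R1881 and 14 in shEV EtOH. The growth factor and TSC-Rheb list stood at 6, 4, 3 and 3 of 11 genes in the same order. The effectors stood at 12, 13, 9 and 8 of 15 in shFoxA1 R1881, shFoxA1 EtOH, shEV R1881 and shEV EtOH. The assembly factors TELO2, TTI1 and TTI2 with the further complex 2 subunit PRR5L stood at 3, 2, 2 and 1 of 4 in the same order.

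A promoter peak in all 4 lists, as at MLST8, was found at 7 of the 65 (10.8%), against 4.18% of coding genes: TSC1, RHEB, LAMTOR2, FLCN, DDIT4, RPS6 and LPIN1. The highest scores were at TSC1, which restrains complex 1 through the GTPase RHEB, with 371 in shFoxA1 R1881, 388 in shFoxA1 EtOH, 313 in shEV R1881 and 239 in shEV EtOH. RHEB itself, the activator of complex 1, scored 49, 66, 42 and 20 in the same order. FLCN, which acts on the Rag GTPases, scored 164, 94, 214 and 158, and DDIT4, a stress-induced inhibitor of complex 1, scored 122, 166, 85 and 85.

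A peak gained with R1881 under each hairpin, as at MTOR, was found at 12 of the 65 (18.5%), against 12.1% of coding genes: PRR5L, SLC38A9, FNIP2, SESN1, CASTOR1, BMT2, DDIT4, EIF4E, EEF2K, LPIN1, PRKCA and SREBF1. EIF4E, the cap-binding translation factor held in check by targets of complex 1, had gained peaks with a top score of 74 in shFoxA1 R1881 and 114 in shEV R1881. EEF2K, a kinase of translation elongation, had top scores of 197 and 67 in the same order. A peak lost under each hairpin, as at RPTOR, RICTOR and MAPKAP1, was found at 9 (13.8%), against 8.48% of coding genes: RHEB, SLC38A9, SESN1, SESN2, CASTOR2, BMT2, NPRL3, PRKAA1 and SREBF1. SLC38A9, SESN1, BMT2 and SREBF1 were in each group, with different peaks gained and lost.

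The numbers of peaks per list within 50 kb were equal to those of DEPTOR at TFEB, to those of AKT1S1 at FNIP1, to those of MAPKAP1 at CASTOR2 and RRAGA, and to those of PRR5 at EIF4E. No gene of the 65 had the same 4 numbers as MTOR, MLST8, RPTOR or RICTOR.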

How the data were processed

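mTOR chromatin immunoprecipitation and input DNA of LNCaP cells were sequenced as paired-end 150 bp reads, per the labels' protocols. The submitters' processing notes name, without role or order, MACS2, HOMER 4.11.1, deepTools 3.5.0, BWA 0.7.12, Trimmomatic 0.36 and Picard 2.0.1, and the build hg38. Per the file headers, each list is HOMER's peak annotation of peaks called in a single library. The deposited peak score is the authors' value, of unstated definition. The GC fraction of each peak, as deposited, is printed as a percentage. The sources used here give neither the peak caller's control nor its threshold.

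Peaks on chromosomes 1 to 22, X and Y were used. Peaks that overlap by at least 1 bp were called shared, and overlapping peaks of the 4 lists were merged into regions. Gene, distance and annotation were taken as deposited. RefSeq tables (GRCh38.p14) gave gene bodies and promoters; promoter windows were matched for 5 of the 8 subunit genes (MTOR, RPTOR, RICTOR, MAPKAP1 and PRR5). The implied start sites matched RefSeq gene ends at 6 of the 8 genes, the others being AKT1S1 and PRR5. All 65 pathway genes were matched by symbol or synonym. Python 3.11.15 with pandas 2.3.3 was used, and the overlap code was tested on simulated data. Depth is unknown, and with 1 library per group no test was made.

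The genes and lists were chosen with earlier results of these data known. All subunit genes and their peaks are named. Pathway genes are named when they have a promoter peak in all 4 lists, a peak gained or lost with R1881 under both hairpins, or the same numbers of peaks as a subunit gene. Some peaks near or inside the subunit genes are not reported here.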

Additional observations from a re-analysis of the deposited data

Results flagged for a closer look

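One region at the subunit genes differed in its R1881 response between the hairpins. The L1PA4 element in intron 2 of RICTOR had a peak with a score of 83 in shFoxA1 R1881 and none in shFoxA1 EtOH, whereas it had none in shEV R1881 and a peak with a score of 50 in shEV EtOH. Each group is 1 library, and the difference between the hairpins was not tested. In shFoxA1 EtOH the nearest peak was 10.4 kb away, and in shEV R1881 it was 176 kb away.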

How the results depend on the processing

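Of 92 recalculated counts, 62 were within 1.5 times their value in the report and 30 were not; no such shift came from requiring an overlap of 0.5 of the shorter peak or from counting peaks up to 500 bp apart as shared. Without peaks annotated to a repeat, genes with a peak within 50 kb numbered 3 in shFoxA1 R1881 and 2 in shEV R1881, and peaks to 6 in shFoxA1 R1881, 7 in shFoxA1 EtOH and 2 in shEV R1881. R1881 then gained 2 peaks with the FoxA1 hairpin and 0 with the empty vector, and knockdown in EtOH gained 3 and lost 1. Within 10 kb, 3 genes and 3 peaks were counted in shEV EtOH, 7 peaks in shFoxA1 EtOH and 3 in shEV R1881; R1881 lost 3 peaks with the FoxA1 hairpin and 2 with the empty vector, and knockdown in EtOH gained 4 and lost 0, and in R1881 lost 0. With lists cut to 24948 peaks by score, ties drawn at random, knockdown in R1881 gained 4 of 8 peaks.

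The remaining alternatives were chosen after seeing the data. All peaks in the gene bodies numbered 32, 24, 15 and 15 in shFoxA1 R1881, shFoxA1 EtOH, shEV R1881 and shEV EtOH. R1881 gained 15 of 32 with the FoxA1 hairpin and 6 of 15 with the empty vector. Knockdown gained 17 of 32 and lost 0 of 15 in R1881, and gained 13 of 24 and lost 4 of 15 in EtOH. No such shares were computed over all gene bodies. Over all peaks within 50 kb of a TSS, knockdown gained 54.2% and lost 26.1% in R1881, and gained 50.8% and lost 26.2% in EtOH. Within 3 kb of the start, 2 genes had a peak in shEV R1881. The cause of these shifts was not tested. No paired analysis was possible because each group has 1 library, and for the same reason no replicate could be left out. With unknown depth and no replicates, a peak missing from a list is not shown to be absent from the cells.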
